A study of Mus musculus with 24 samples.

Results

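HBC-3 is a line of mouse hepatoblasts, liver progenitors able to mature toward hepatocytes or toward bile duct cells, and it was differentiated on Matrigel, which is made of basement membrane proteins. The step examined here is the second day on the gel. It sets the 3 arrays of day 2, lettered A, B and C, against the 3 arrays of day 1 with the same letters, which makes 6 of the 24 arrays of the series (day 0 and days 1 to 7, 3 arrays each). The arrays were grouped by the day in the titles of the samples. The step itself was chosen with earlier counts of changes per day step known. Both days held the same unmodified line, and by the titles they differed in time on Matrigel, 2 days and 1 day. Per the labels' protocols, the STO fibroblast feeder layer on which the line is kept was removed by trypsin and replating on plastic, RNA was amplified, and each array set the sample, labelled with Cy5, against a shared Cy3 target made from undifferentiated HBC-3 RNA. Dyes were not swapped, and because both days have the same orientation a constant dye effect drops out of their difference.

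Levels below are log ratios of sample to undifferentiated reference after each array was centred on its median, so a level of 0 is the reference's own. They are read as log2 of Cy5 over Cy3. That base and direction are likely from the range of values and the dyes, but are not stated with the table. With the sign of all ratios turned, every rise given here would be a fall. A change is day 2 minus day 1 on the log2 scale, with its standard error from limma, which was fitted to the 9 arrays of days 1 to 3 with the letter as a replicate block. Adjusted p-values are Benjamini-Hochberg over all units tested, with a threshold of 0.05, from 2-sided tests. The labels do not say whether A, B and C were different cultures. The p-values therefore reflect array-to-array spread alone, and that spread may be technical. In a culture, fewer cells of a kind and less RNA per cell cannot be told apart. Levels are not compared between genes, since each is relative to its own reference level.

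As background, proliferating cells copy their DNA with the MCM helicase and its partners and then divide under the control of cyclins, mitotic kinases, kinesin motors and the spindle checkpoint. The genes of both phases are transcribed in waves, those of replication largely through E2F sites and those of mitosis largely through CHR and CCAAT elements near their start sites. Progenitors that differentiate commonly leave the cycle, and mature liver epithelial cells are known for their secreted plasma proteins, lysosomes and cell junctions.

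The arrays of day 2 held 21898, 17234 and 18562 values (A, B and C) of 24157 features, and those of day 1 held 22149, 18004 and 19212. The SD of the log ratios was 0.633, 0.749 and 0.626 on day 2 and 0.594, 0.583 and 0.558 on day 1. No arrays held identical values, and among the 9 arrays of days 1 to 3 the lowest pairwise correlation was 0.633 (across features, which are not independent replicates). Defining markers of the labelled cell type were thinly covered: of 37 hepatocyte and hepatoblast genes listed, 4 could be tested (Afp, Igf2, H19 and Apob), and Alb was not among them. Of 26 bile duct genes, 9 could be tested.

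Between day 1 and day 2, 860 of 14629 units changed, which is 5.88%. A unit is a gene, as the mean of its features, or an unnamed feature. Higher at day 2 were 418 units (2.86%) and lower were 442 (3.02%). At an unadjusted p under 0.05 there were 3267 of the 14629 units, the background for unadjusted counts given below. Of the 6986 genes 448 changed (6.41%), 216 of them higher (3.09%) and 232 lower (3.32%). The median change of the called genes was 0.81 among the higher and -0.83 among the lower, and 66 of the higher and 75 of the lower moved by more than 1. Of the 448 called genes, 405 had values on all 6 arrays. In all 405 the 3 letter pairs had the same sign, and in 386 of them the arrays of day 2 and day 1 did not overlap, a feature of 27.5% of all 6200 genes with 6 values. The calls were made on these same pairs, so both counts follow in part from the choice of genes. The number called depended on the letters. It was 112 without the A arrays, 2138 without the B arrays and 61 without the C arrays, and without the replicate block it was 426 (184 higher, 242 lower).

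Among genes past the threshold with values on all 6 arrays, the largest rise was that of Clu, which encodes the secreted chaperone clusterin. Clu stood at 4.59, 5.61 and 4.54 at day 2 (arrays A, B and C) and at 1.97, 2.34 and 1.92 at day 1. Every day 2 array lay more than 2 above every day 1 array on the log2 scale, and the change was 2.83 ± 0.18 (adjusted p = 0.000398). A pair of other secreted liver proteins rose as well. Lbp, an acute phase protein that binds lipopolysaccharide, had 2.99, 4.70 and 2.98 at day 2 and 1.25, 1.90 and 1.30 at day 1. Selenop, the selenium carrier of plasma, had 2.83, 3.77 and 3.14 at day 2 and 1.29, 1.57 and 1.42 at day 1. The groups did not overlap for either gene, array B of day 2 was the highest for both, and Lbp and Selenop rose by 2.07 ± 0.24 and 1.82 ± 0.14. All 3 were already above the reference at day 1.

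In other genes the mean level was above the reference at day 2 and below it at day 1. Tgm2, a protein-crosslinking transglutaminase, had 1.62, 1.86 and 2.02 at day 2 and -0.25, -1.40 and 0.06 at day 1, a rise of 2.37 ± 0.25. Dhrs3, a retinaldehyde reductase, had 0.61, 2.08 and 0.65 at day 2 and -1.55, -0.38 and -1.38 at day 1, a rise of 2.21 ± 0.13. Array B was the highest of its day for Dhrs3 on both days, and the 3 pairs moved alike. Igf1, the insulin-like growth factor secreted by hepatocytes, had 0.67, 0.36 and 0.59 at day 2 and -1.08, -1.21 and -0.95 at day 1, a rise of 1.62 ± 0.14. Clca3a1, of a family of secreted proteins that modulate chloride channels, rose by 1.62 ± 0.17 and was likewise above 0 on all 3 arrays of day 2 and below 0 on all 3 of day 1. Neat1, the long noncoding RNA that builds paraspeckles, had 1.50, 1.03 and 1.71 at day 2 and -0.27, -0.20 and -0.10 at day 1, a rise of 1.60 ± 0.22.

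The remaining large rises were of mixed function. Sprr2a3, of the small proline-rich proteins of epithelia, rose by 2.17 ± 0.23. Its family has near-identical members, which 1 feature may not separate. Tmem176a, a membrane protein, rose by 2.01 ± 0.26, Gucy1a1, a subunit of soluble guanylate cyclase, by 1.82 ± 0.21, and Mgp, the matrix Gla protein that inhibits calcification, by 1.79 ± 0.28. Dapk1, the death-associated protein kinase, rose by 1.68 ± 0.17 and Dtx4, of the Deltex family of Notch regulators, by 1.57 ± 0.25. Without the replicate block Lbp, Tmem176a, Dapk1 and Dtx4 had adjusted p-values of 0.0755, 0.0628, 0.0717 and 0.0852 and were no longer called. Phyhd1 (2.41 ± 0.22) and Itga8 (1.83 ± 0.18) were also called but lacked values on 1 or more arrays of letter B. They are named after their values were seen.

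**Figure D1:**
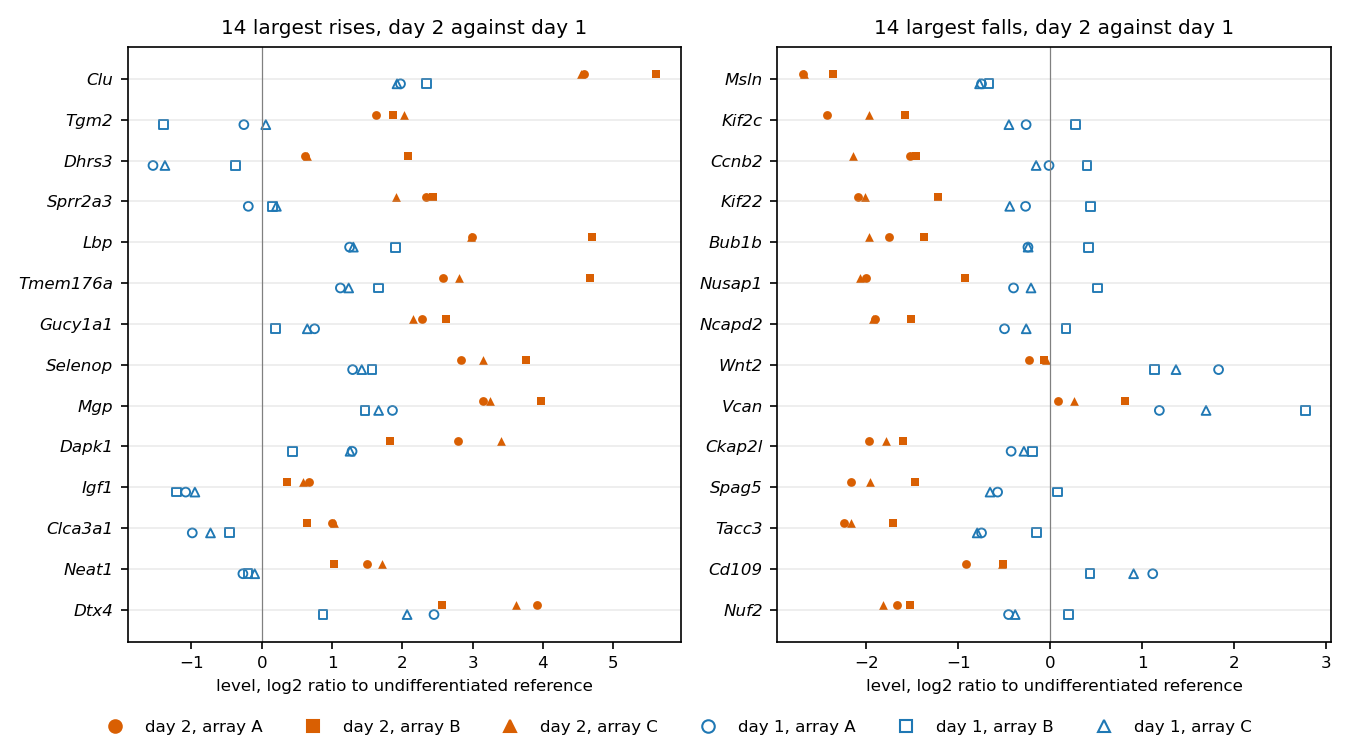
Levels of the 14 most increased and 14 most decreased genes among those past the threshold with values on all 6 arrays and 1 sign in the 3 letter pairs, as log2 ratio to the undifferentiated reference (horizontal axis), on the arrays of day 2 (filled) and day 1 (open), with a shape for each letter. For all 28 genes the 3 arrays of day 2 lie on one side of the 3 of day 1, as for Clu (4.54 to 5.61 at day 2 and 1.92 to 2.34 at day 1).

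Of the 14 largest falls by the same rule, 3 were of the cell cycle list described below (Ccnb2, Bub1b and Nusap1). Another 7, in none of the lists, are described with them because of their known roles, a grouping made after the values were seen. Kif2c, a kinesin that takes microtubules apart at centromeres, had -2.43, -1.58 and -1.97 at day 2 and -0.26, 0.28 and -0.45 at day 1. Kif22, a kinesin that moves chromosomes, had -2.09, -1.21 and -2.02 at day 2 and -0.27, 0.44 and -0.44 at day 1. Bub1b, a kinase of the spindle checkpoint, had -1.75, -1.38 and -1.98 at day 2 and -0.24, 0.42 and -0.24 at day 1. For these genes the A and C arrays of day 1 lay a little under the reference and the B array above it, while all 3 arrays of day 2 were well below. The falls were 1.85 ± 0.15, 1.68 ± 0.11 and 1.68 ± 0.13 for Kif2c, Kif22 and Bub1b. Ccnb2, the mitotic cyclin B2, fell by 1.79 ± 0.17. Nusap1 and Spag5, which bind spindle microtubules, fell by 1.64 ± 0.13 and 1.48 ± 0.12, Ncapd2, a condensin subunit, by 1.58 ± 0.12, and Nuf2, of the kinetochore, by 1.46 ± 0.16. Ckap2l and Tacc3, both of the spindle, fell by 1.48 ± 0.13 and 1.48 ± 0.19. Tacc3 had an adjusted p of 0.0521 without the replicate block.

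The other 4 of the 14 encode surface, matrix and signalling proteins. Msln, the surface protein mesothelin, had -2.69, -2.37 and -2.67 at day 2 and -0.75, -0.67 and -0.77 at day 1, a fall of 1.85 ± 0.11 with little spread within either day. Wnt2, a secreted Wnt ligand, had -0.23, -0.06 and -0.05 at day 2 and 1.83, 1.14 and 1.37 at day 1. Its level was thus above the reference at day 1 and close to it at day 2, a fall of 1.56 ± 0.19. Vcan, the matrix proteoglycan versican, had 0.09, 0.82 and 0.26 at day 2 and 1.19, 2.78 and 1.70 at day 1, a fall of 1.50 ± 0.17 that had an adjusted p of 0.0566 without the replicate block. Cd109, a surface protein that binds TGF-beta, fell by 1.47 ± 0.24 and was below 0 on all 3 arrays of day 2 and above 0 on all 3 of day 1. Acsbg1, a fatty acyl-CoA synthetase, was called at -2.23 ± 0.17 with array B of day 1 missing, and is named after its values were seen.

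Most DNA replication and cell cycle genes fell. Of 64 tested, 39 fell and 0 rose by limma (49 lower and 0 higher at an unadjusted p under 0.05), against 232 lower and 216 higher among all 6986 genes. The change was negative in 60 of the 64, with a median of -0.80, against a median of 0.03 over all genes. The median level of the list was -1.24, -0.97 and -1.27 on arrays A, B and C of day 2 and -0.29, -0.08 and -0.43 on those of day 1, so the groups were apart. Within the letter pairs the median change was -0.78, -0.85 and -0.65. Of 60 members with 6 values, 52 were lower at day 2 in all 3 pairs and 45 did not overlap. Over all genes with 6 values, 1705 of 6200 (27.5%) did not overlap, in either direction. The share of all genes lower in all 3 pairs was not counted. The number called was 24 without the replicate block, 13 without the A arrays, 46 without the B arrays and 10 without the C arrays, and 0 rose in each.

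Split by role, a split made after the values were seen, 18 of 26 genes of mitosis and cytokinesis fell. All 26 changes were negative, and their median was -1.22. Aurka, a kinase of the centrosome, had -1.41, -1.59 and -1.56 at day 2 and -0.01, -0.01 and -0.24 at day 1, a fall of 1.43 ± 0.20. Plk1, the polo-like kinase of mitotic entry, had -1.44, -0.54 and -1.35 at day 2 and 0.33, 0.36 and 0.02 at day 1, a fall of 1.34 ± 0.16. Mki67, which encodes the proliferation antigen Ki-67, had -1.98, -1.20 and -1.99 at day 2 and -0.41, 0.06 and -0.54 at day 1, a fall of 1.43 ± 0.12. Day 2 was lower than day 1 without overlap for all 3.

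Of 25 genes of replication and nucleotide supply, 14 fell, 24 were negative and the median was -0.68. The MCM helicase subunits Mcm5, Mcm3 and Mcm6 fell by 1.15 ± 0.15, 0.98 ± 0.14 and 0.97 ± 0.12. Mcm5 had -1.36, -0.98 and -1.30 at day 2 and -0.22, 0.34 and -0.31 at day 1. Tk1, the thymidine kinase of S phase, fell by 1.38 ± 0.12. Of 13 cyclins, kinases and their regulators, 7 fell and 10 were negative, with a median of -0.61. Beside Ccnb2 these were Cks2, Cdk1, Ccna2, Cdc20, Cks1b and Ube2c, with changes of -1.13 to -0.61. The G1 genes Cdk4, Ccnd2 and Ccnd3 had changes of 0.17 ± 0.26, 0.05 ± 0.13 and 0.04 ± 0.12, and Top2a, the replication and mitosis topoisomerase, had -0.20 ± 0.20, none past the threshold. Its 2 features had opposite signs. Members of this list beyond the largest falls were chosen after their values were seen.

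**Figure D2:**
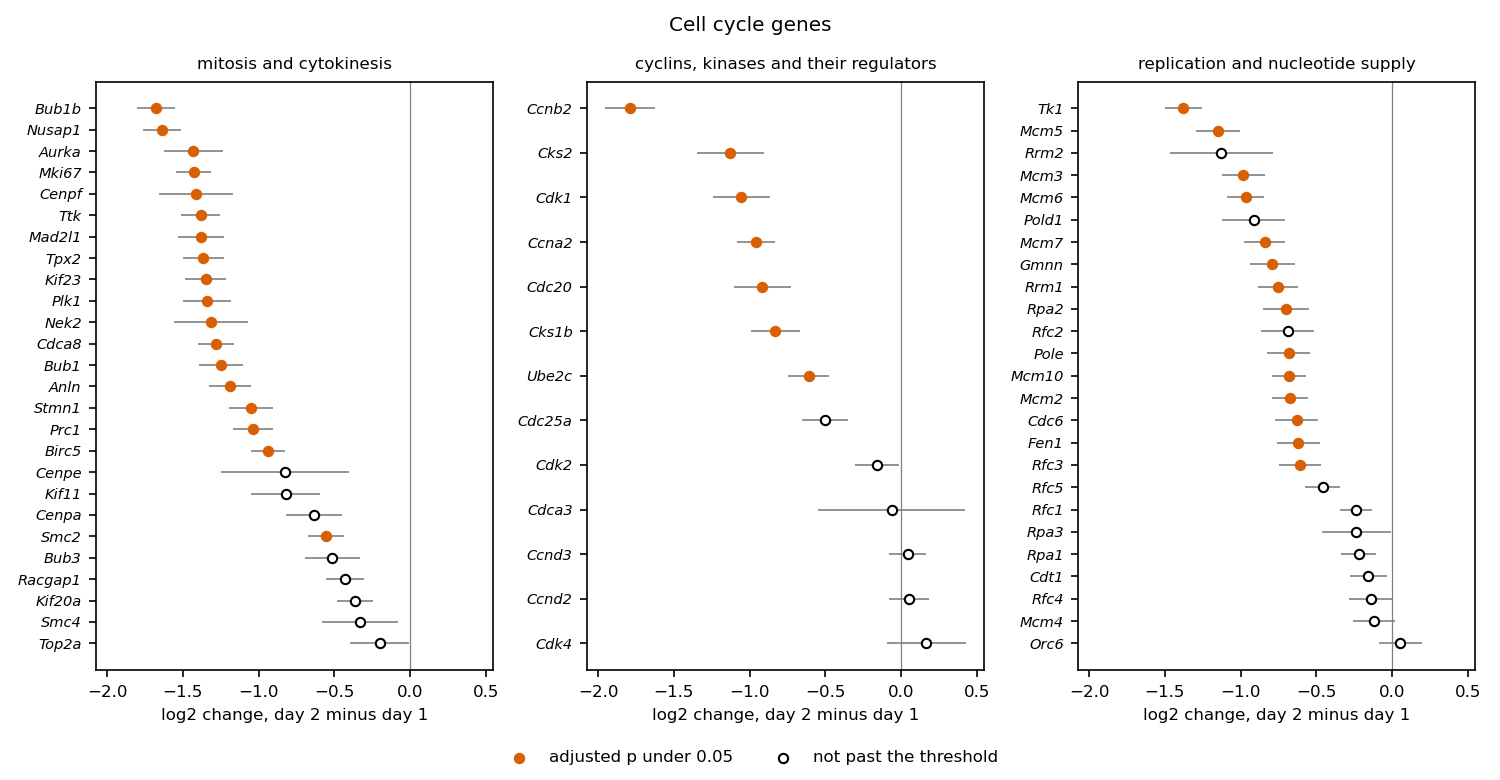
Change of each tested cell cycle gene, day 2 minus day 1 on the log2 scale (horizontal axis), with its standard error, in 3 groups by role. Filled points passed an adjusted p of 0.05 and open points did not. All 26 mitotic genes lie below 0, and Cdk4, Ccnd2, Ccnd3 and Orc6 lie above it.

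The promoters of a few members are shown because their motif content differs by role. The sequences are RefSeq's for build GRCm38.p6 and run from 250 bases before to 50 after the start site, on the strand of the gene. A promoter was found for 5699 of the 6986 genes tested, and the first listed was used. Capitals mark CHR letters (TTTGAA or TTCGAA) and CCAAT in Ccnb2 and Plk1, E2F letters (TTTGGCGC or TTTCGCGC) and CCAAT in Mcm5 and Mcm3, each on either strand. In Mcm5 E2F letters on both strands overlap.
Ccnb2, chr9:70421505-70421804, minus strand: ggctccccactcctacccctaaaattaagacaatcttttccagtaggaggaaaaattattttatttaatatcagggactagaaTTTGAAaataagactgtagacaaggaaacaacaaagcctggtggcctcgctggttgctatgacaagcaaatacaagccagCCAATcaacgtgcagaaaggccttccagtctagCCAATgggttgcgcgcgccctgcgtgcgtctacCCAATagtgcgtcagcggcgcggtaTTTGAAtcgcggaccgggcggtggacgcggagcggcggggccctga
Plk1, chr7:122159185-122159484, plus strand: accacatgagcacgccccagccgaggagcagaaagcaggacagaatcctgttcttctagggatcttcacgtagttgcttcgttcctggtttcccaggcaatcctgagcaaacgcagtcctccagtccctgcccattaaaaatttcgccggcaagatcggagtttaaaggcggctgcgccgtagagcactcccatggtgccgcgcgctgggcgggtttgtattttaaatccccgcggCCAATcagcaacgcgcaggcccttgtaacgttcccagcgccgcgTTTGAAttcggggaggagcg
Mcm5, chr8:75109259-75109558, plus strand: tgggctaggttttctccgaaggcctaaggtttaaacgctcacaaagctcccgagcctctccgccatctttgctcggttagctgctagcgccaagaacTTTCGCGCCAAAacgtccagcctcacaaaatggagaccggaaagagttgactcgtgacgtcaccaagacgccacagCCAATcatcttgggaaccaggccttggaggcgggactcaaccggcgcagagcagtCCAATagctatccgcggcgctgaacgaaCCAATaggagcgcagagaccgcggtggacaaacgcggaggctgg
Mcm3, chr1:20820263-20820562, minus strand: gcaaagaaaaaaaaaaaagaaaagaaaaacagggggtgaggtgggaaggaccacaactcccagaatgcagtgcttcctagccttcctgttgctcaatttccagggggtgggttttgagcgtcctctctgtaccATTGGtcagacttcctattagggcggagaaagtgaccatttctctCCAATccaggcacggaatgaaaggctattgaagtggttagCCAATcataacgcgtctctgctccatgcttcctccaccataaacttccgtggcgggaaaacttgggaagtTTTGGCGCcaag

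CHR letters were in 17 of 22 mitotic promoters (77.3%), in 4 of 21 replication promoters (19%) and in 13.7% of all promoters searched. E2F letters were in 0 of the 22 mitotic promoters, in 6 of the 21 replication promoters (28.6%) and in 1.72% of all. CCAAT was in 81.8% of the mitotic, 66.7% of the replication and 39.5% of all promoters. Within the cell cycle list, CHR letters were in 21 of 34 promoters of genes that fell (61.8%) and in 6 of 20 of those not past the threshold (30%). That contrast overlaps with role, since 18 of 26 mitotic and 14 of 25 replication genes fell. It was not examined within a role. The motif shares describe letters in a window and do not show that a factor binds there.

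Interferon response genes had mostly positive changes. Of 18 tested, 6 rose and 0 fell by limma (12 higher and 0 lower at an unadjusted p under 0.05), 17 had a positive change, and the median was 0.57. The share called was 33.3%, against 6.41% of all genes. The median level was 0.03, 0.34 and -0.07 on arrays A, B and C of day 2 and -0.52, -0.71 and -0.33 on those of day 1, so the list lay below the reference at day 1 and near it at day 2. Iigp1, an interferon-induced GTPase, had 0.39, 0.85 and 0.34 at day 2 and -0.69, -1.20 and -0.37 at day 1, a rise of 1.28 ± 0.22. Oas2, a sensor of double-stranded RNA, had -0.10, 0.19 and -0.11 at day 2 and -0.87, -0.94 and -0.88 at day 1, a rise of 0.89 ± 0.13. Zbp1, a nucleic acid sensor, and Gbp2, a guanylate-binding protein, rose by 1.04 ± 0.25 and 0.97 ± 0.23, with adjusted p-values of 0.0982 and 0.0777 without the replicate block. The other 2 that rose were Bst2, the antiviral protein tetherin (0.75 ± 0.15), and Stat2, which carries the interferon signal to the nucleus (0.68 ± 0.15, adjusted p = 0.0506 without the replicate block). Oas1a had the 1 negative change, -0.27 ± 0.13, and did not pass. The number called was 3 without the replicate block, 0 without the A arrays, 8 without the B arrays and 0 without the C arrays. From day 2 to day 3 the median change of the same 18 genes was -0.42, with 13 negative, and 0 units passed that comparison. The median level of the list moved less, and at day 3 it was -0.005, 0.10 and -0.13 on arrays A, B and C.

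The promoter of Gbp2 is shown because the interferon-stimulated response element (searched on either strand, in capitals) was in 8 of 13 promoters of this list (61.5%) and in 2.77% of all.
Gbp2, chr3:142620413-142620712, plus strand: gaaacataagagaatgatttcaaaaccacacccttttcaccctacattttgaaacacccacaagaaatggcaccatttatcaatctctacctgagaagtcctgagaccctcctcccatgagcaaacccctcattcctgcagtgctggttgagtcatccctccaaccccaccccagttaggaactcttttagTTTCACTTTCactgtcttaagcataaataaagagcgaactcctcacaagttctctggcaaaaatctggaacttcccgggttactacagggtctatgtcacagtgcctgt

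**Figure D3:**
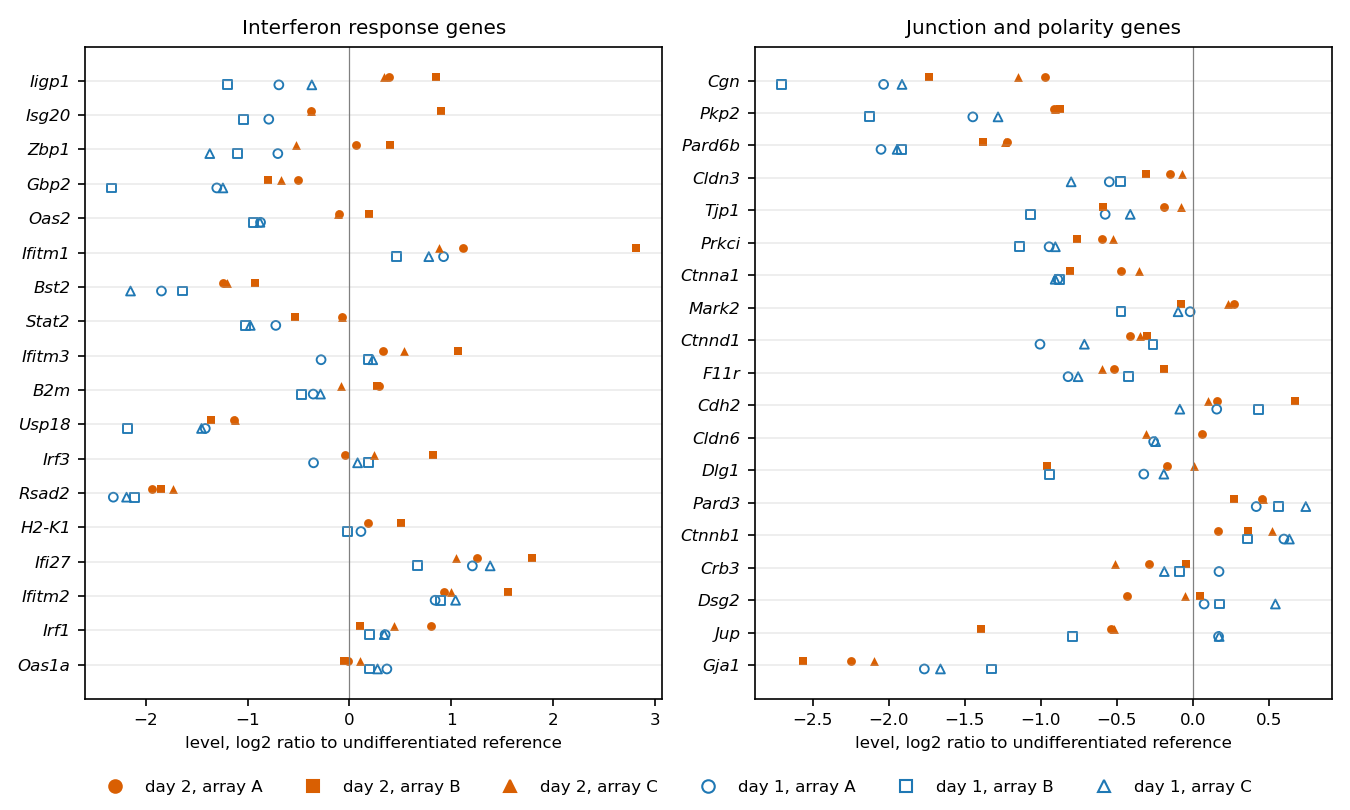
Levels of the 18 interferon response genes and the 19 junction and polarity genes, as log2 ratio to the reference (horizontal axis), on the arrays of day 2 (filled) and day 1 (open), ordered by change. Iigp1 and Oas2 show no overlap of the days, and Cgn, Pkp2 and Pard6b stay below 0 on both days.

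Lysosomal genes had mostly positive changes. Of 28 tested, 6 rose and 1 fell (25% called, against 6.41% of all genes), 26 had a positive change, and the median was 0.38. Ctsa, the protective cathepsin A, had 1.72, 1.83 and 1.49 at day 2 and 0.78, 0.78 and 0.88 at day 1, a rise of 0.87 ± 0.19. Lamp2 and Scarb2, membrane proteins of the lysosome, rose by 0.75 ± 0.14 and 0.72 ± 0.12, and the enzyme Hexa, the cholesterol carrier Npc2 and the membrane protein Cln3 by 0.68, 0.68 and 0.60. Ctsc, the protease cathepsin C, was at 0.89 and 1.01 on arrays A and C of day 2 and at 2.60 and 2.38 on those of day 1, with no values on the B arrays, a fall of 1.54 ± 0.17. Without the replicate block 2 rose, Lamp2 and Scarb2, and 1 fell. Without the A or the C arrays 0 rose.

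Of the 10 genes of secreted plasma proteins and the acute phase, 4 rose and 1 fell (50% called, against 6.41% of all genes). The 4 were Clu, Lbp, Selenop and Cp, which encodes the copper carrier ceruloplasmin and rose by 0.78 ± 0.13. Jak2, the cytokine receptor kinase, fell by 0.68 ± 0.13. Stat3 and Socs3, a factor activated by cytokine signals and an inhibitor of them, had changes of 0.43 ± 0.15 and 0.41 ± 0.16 and did not pass (adjusted p = 0.137 and 0.192). Without the replicate block 2 rose and 0 fell.

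Of 4 fetal liver genes 2 rose (50% called, against 6.41% of all genes). Afp, the fetal plasma protein alpha-fetoprotein, had 0.95, 0.92 and 0.60 at day 2 and 0.21, -0.47 and -0.06 at day 1, a rise of 0.93 ± 0.20. Igf2, the fetal growth factor, had 1.07, 1.23 and 0.91 at day 2 and 0.43, -0.06 and 0.36 at day 1, a rise of 0.83 ± 0.17. H19, the noncoding RNA next to Igf2, had 2.05, 3.72 and 2.65 at day 2 and 1.17, 0.19 and 1.63 at day 1. The days did not overlap, but the pairs differed and the change of 1.81 ± 0.59 had an adjusted p of 0.118. Apob, of the lipoproteins, had -0.30 ± 0.11 (adjusted p = 0.15). Among 9 bile duct genes 0 rose and 2 fell (22.2% called). These were the integrin subunit Itga6 (-0.66 ± 0.12) and the surface protein Cd24a (-0.60 ± 0.13), both with adjusted p above 0.05 without the replicate block (0.0883 and 0.0935). The list did not move 1 way: 4 changes were positive and 5 negative, from -0.66 to 0.57, with a median of -0.03. By limma 2 were higher and 2 lower at an unadjusted p under 0.05. Krt19, the bile duct keratin, had -0.52 ± 0.23 and did not pass.

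Genes linked to growth arrest and FOXO factors had 6 rises and 0 falls among 21, with a median of 0.25. The share called was 28.6%, against 6.41% of all genes. Within the letter pairs the median change was -0.10, 0.75 and 0.13 (A, B and C), so it was negative in pair A and largest in pair B. Txnip, an inhibitor of thioredoxin and glucose uptake, had 1.31, 0.70 and 1.11 at day 2 and -0.52, -0.13 and 0.12 at day 1, a rise of 1.21 ± 0.19. Trp53inp1, a p53-induced regulator of autophagy, rose by 1.10 ± 0.16 and Gas1, a growth arrest gene of the cell surface, by 0.96 ± 0.16. Gas5, Foxo3 and Sesn1 rose by 0.80, 0.67 and 0.62, and Sesn1 had an adjusted p of 0.0753 without the replicate block. The cyclin-dependent kinase inhibitor Cdkn1b had -0.02 ± 0.16. With quantile normalization the median of the list was 0.002, with 5 rises and 1 fall. Without the A or the C arrays 0 of its members passed.

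Genes of cell shape and contact moved in both directions. Against 6.41% of all genes, 21.1% of junction and polarity genes and 33.3% of microtubule genes were called. The shares were 18.2% for integrins and focal adhesion and 8.82% for actin, the last near that of all genes. Among 19 junction and polarity genes 3 rose, Cgn (cingulin of tight junctions, 0.93 ± 0.11), Pkp2 (plakophilin of desmosomes, 0.72 ± 0.17) and Pard6b (a polarity scaffold, 0.69 ± 0.12). Cgn had -0.98, -1.74 and -1.15 at day 2 and -2.04, -2.71 and -1.91 at day 1, so it stayed below the reference on both days. Jup, plakoglobin, fell by 0.67 ± 0.15. Only Pard6b of these 4 was called without the replicate block. Among 12 microtubule genes 4 fell, Stmn1 (-1.05 ± 0.15), Tubb6 (-1.03 ± 0.14), Tubb3 (-0.81 ± 0.17) and Tubb2b (-0.62 ± 0.12), and all 4 were also called without the replicate block. Tubulins are close relatives, which features may not fully separate. Stmn1, which destabilises microtubules, is also in the cell cycle list. Among 22 integrin and focal adhesion genes 4 fell and 0 rose, Cav1 (caveolin, -0.79 ± 0.18), Itgb3 (-0.69 ± 0.15), Tns1 (tensin, -0.67 ± 0.12) and Itga6. Among 34 actin genes Cotl1 rose by 0.90 ± 0.12, Myl9 rose by 1.57 ± 0.26 with no C values, and Tmsb4x fell by 0.76 ± 0.14. Without the replicate block Itgb3 and Tmsb4x had adjusted p-values of 0.185 and 0.113 and Itga6 0.0883. With arrays scaled Cav1 had an adjusted p of 0.141, and the changes of Itgb3, Cgn, Pkp2 and Pard6b were -1.48, 1.47, 1.09 and 1.13. With quantile normalization Itgb3 had -1.26, and Cotl1 had 0.58 and was no longer called.

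Calls in the signalling lists went both ways, and their shares of genes called were 15.4% (4 of 26) for TGF-beta and BMP, 30.8% (4 of 13) for Notch and 10% (2 of 20) for Wnt, against 6.41% of all genes. In the TGF-beta and BMP list, the receptor Tgfbr1 and the inhibitors of differentiation Id2 and Id3 rose by 0.88 ± 0.15, 0.64 ± 0.12 and 0.60 ± 0.12, and Fst, the activin antagonist follistatin, fell by 1.27 ± 0.11. Bmp4 had 0.05 ± 0.12, and Tgfbi, a matrix protein induced by TGF-beta, had 1.16 ± 0.47 (adjusted p = 0.192). In the Notch list, Dtx4, Psen2 (0.97 ± 0.19) and Hes6 (0.89 ± 0.18) rose, and Hey1, a target of the pathway, fell by 1.34 ± 0.16 with no B values at either day. In the Wnt list, the antagonist Sfrp2 rose by 0.88 ± 0.21 and the receptor Fzd8 fell by 0.86 ± 0.12. The ligand Wnt2, whose larger fall is given above, was in none of the lists and is not counted in that share. Of 25 matrix genes Mgp and Col3a1 rose and Vcan and Lama1 fell (16% called). Of 22 detoxification and antioxidant genes 13.6% were called. Ftl1, the ferritin light chain, rose by 0.71 ± 0.16, and Txn1, thioredoxin, and Gsr, glutathione reductase, fell by 1.14 ± 0.24 and 0.98 ± 0.16. Pkm, the pyruvate kinase of glycolysis, fell by 1.26 ± 0.18, the 1 call among 19 glycolysis and hypoxia genes (5.26%, near the share of all genes). Without the replicate block the calls of Tgfbr1, Id3, Fst, Dtx4, Psen2, Hes6, Sfrp2 and Ftl1 were lost, with adjusted p-values of 0.0737, 0.0781, 0.0512, 0.0852, 0.0597, 0.188, 0.115 and 0.11.

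Ribosomal protein genes had small changes of like sign. By limma 0 of 58 passed, also without the replicate block, against 6.41% of all genes. At an unadjusted p under 0.05, 10 of the 58 were higher and 0 lower, beside 3267 of all 14629 units. In all, 56 had a positive change, against 3819 of all 6986 genes. The median was 0.25 against 0.03 over all genes. The list's median level was 0.23, 0.41 and 0.13 on arrays A, B and C of day 2 and 0.06, 0.11 and -0.09 on those of day 1. Without array B of day 2 the median was 0.11 with 43 of 56 positive. Translation factors and tRNA synthetases were mostly negative, with 41 of 61 below 0 and a median of -0.18. By limma 0 of these 61 were called, with 2 higher and 15 lower at an unadjusted p under 0.05. Chaperones were mostly negative too, with 32 of 40 below 0 and a median of -0.22. Of the 40, 1 was called (2.5%), Hsph1 at -0.71 ± 0.15, with an adjusted p of 0.097 without the replicate block. Among all 6986 genes 3167 changes were negative.

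**Figure D4:**
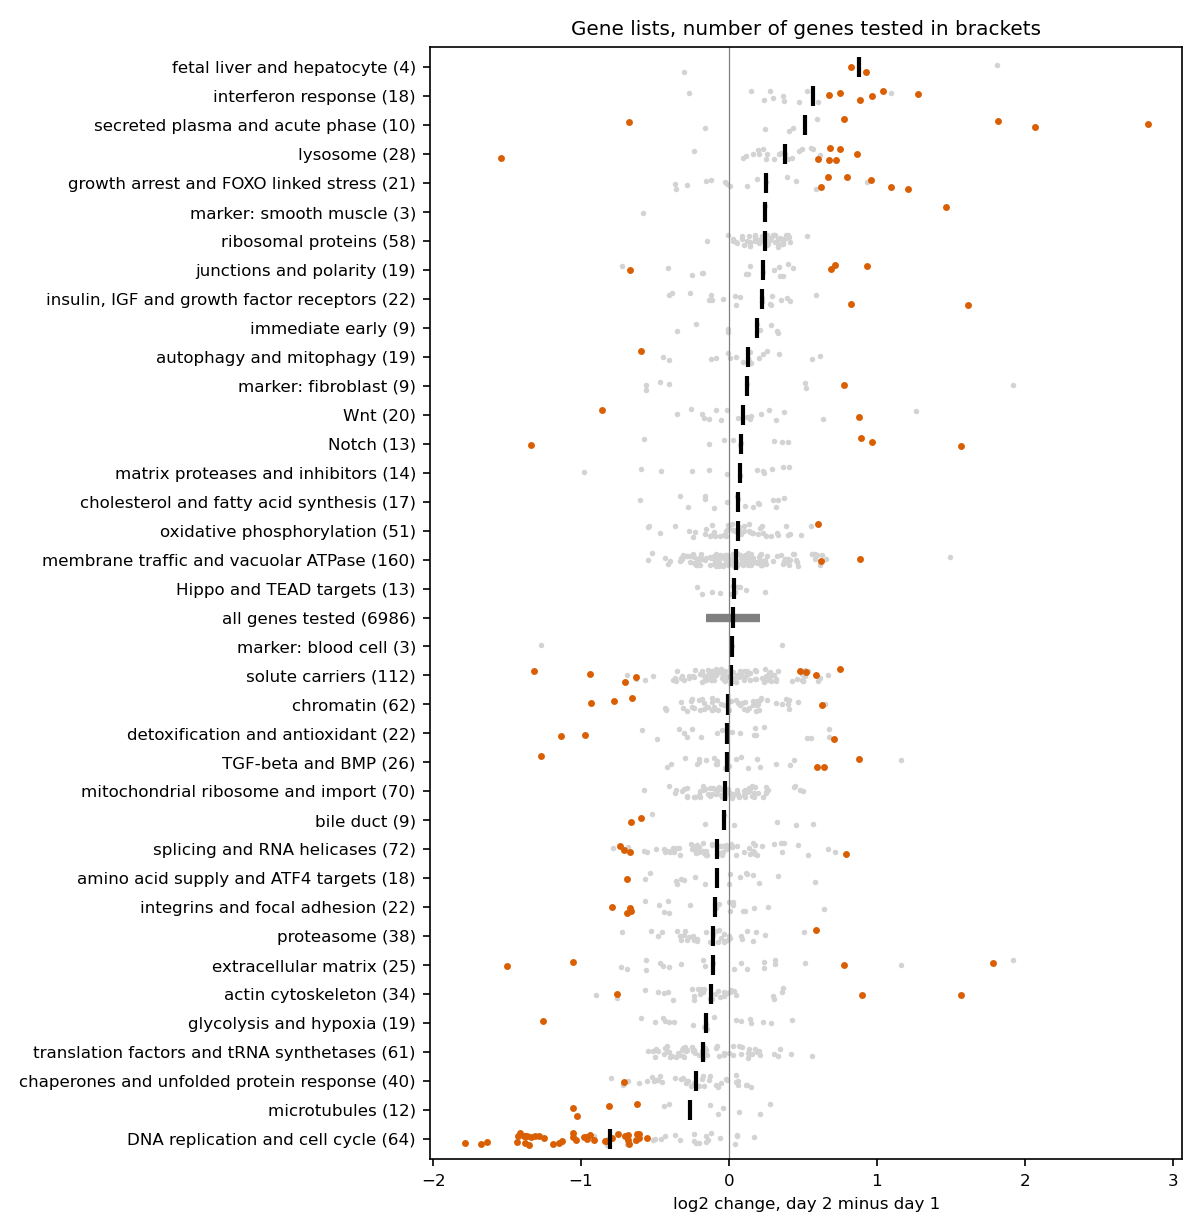
Change of each gene, day 2 minus day 1 on the log2 scale (horizontal axis), by gene list, with the number tested in brackets. Orange points passed an adjusted p of 0.05, grey points did not, black bars are list medians, and the grey bar spans the lower to the upper quartile of all genes. The cell cycle list (median -0.80) lies apart from the median of all genes (0.03).

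Markers of other cells were examined because the line is kept on feeder fibroblasts. Of 9 fibroblast genes tested, 1 rose (11.1%, against 6.41% of all genes), the collagen Col3a1 (0.78 ± 0.18, adjusted p = 0.278 without the replicate block). Of the 9, 5 were positive, and the median change was 0.13. At an unadjusted p under 0.05, 4 were higher and 3 lower, beside 3267 of all 14629 units. The 3 lower were the collagens Col5a1 (-0.56 ± 0.19) and Col6a1 (-0.56 ± 0.23) and the receptor Pdgfrb (-0.41 ± 0.14), with adjusted p-values of 0.132 to 0.205. The list's median level was 1.10, 0.77 and 0.82 at day 2 and 0.68, 0.18 and 0.63 at day 1. Taken gene by gene, the median change within the letter pairs was -0.32, 0.32 and 0.10 (A, B and C). Pair A thus went the other way from its median levels. Dcn, the matrix proteoglycan decorin, had 1.76, 1.57 and 1.70 at day 2 and -0.25, -0.47 and -0.02 at day 1, a change of 1.92 ± 0.48 that missed the threshold (adjusted p = 0.0528). The days did not overlap and all 3 pairs rose. Its standard error comes from the limma fit of all 9 arrays of days 1 to 3. Of 3 smooth muscle genes 1 rose (33.3%, against 6.41% of all genes), Mylk, myosin light chain kinase, by 1.47 ± 0.14. Smtn, smoothelin, had -0.58 ± 0.16 (adjusted p = 0.0726) and Cnn1, calponin, 0.25 ± 0.17, neither past the threshold. The median level of these 3 was -1.56, -0.50 and -1.79 at day 2 and -1.26, -0.93 and -1.24 at day 1, with Cnn1 missing on the B arrays. Taken gene by gene, their median change within the letter pairs was 0.21, 0.44 and 0.29. Pairs A and C thus went the other way from their median levels. Of 2 endothelial and 3 blood cell genes 0 passed by limma, with 0 and 2 at an unadjusted p under 0.05. Hba-a1, of haemoglobin, had 0.20, 0.10 and -0.10 at day 2 and 2.10, 0.02 and 1.89 at day 1, so it was high on the A and C arrays of day 1 alone (change -1.27 ± 0.39, adjusted p = 0.096). The part of other cells in the changes above was not tested.

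As medians over the called genes, levels at day 2 were near those of later days, while single genes went on to differ. The median level of the 216 genes that rose was -0.13 at day 0, 0.17 at day 1, 0.93 at day 2, 0.96 at day 3 and 0.86 at day 7. That of the 232 that fell was -0.03 at day 0, -0.14 at day 1, -1.03 at day 2, -1.01 at day 3 and -0.87 at day 7. These genes were chosen on the arrays of days 1 and 2, and the values of days 4 to 7 come from arrays that the choice did not use. Of the genes that rose, 98 of 212 had a positive change from day 2 to day 3. Clca3a1 had a mean level of 0.89 at day 2 and 3.89 at day 7, Zbp1 of -0.02 and -2.47, and Tmsb4x of -1.03 and -2.36. At day 1, 67 of the genes that rose already stood more than 0.5 above the reference, 53 stood more than 0.5 below it, and 96 lay between. Of the genes that fell, 42 stood more than 0.5 below the reference, 51 more than 0.5 above it, and 139 lay between.

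Day 3 against day 2, in the same limma fit, had 0 calls among 14107 units (0%), with 1509 at an unadjusted p under 0.05, against 3267 of 14629 for day 2 against day 1. That contrast in counts is not a test of each gene. The difference between the 2 steps, tested per unit, passed for 1 of 13945 units (0.00717%), an unnamed feature, and for 142 with arrays scaled to a common spread. Both steps share the arrays of day 2. In a fit of all 24 arrays without a block, day 1 against day 0 had 1756 calls, day 2 against day 1 had 75 (26 higher, 49 lower), and each later step had 0. The step was chosen with counts of calls from such an unpaired fit known. Its contrast with the later steps there restates that choice and is not a separate result.

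**Figure D5:**
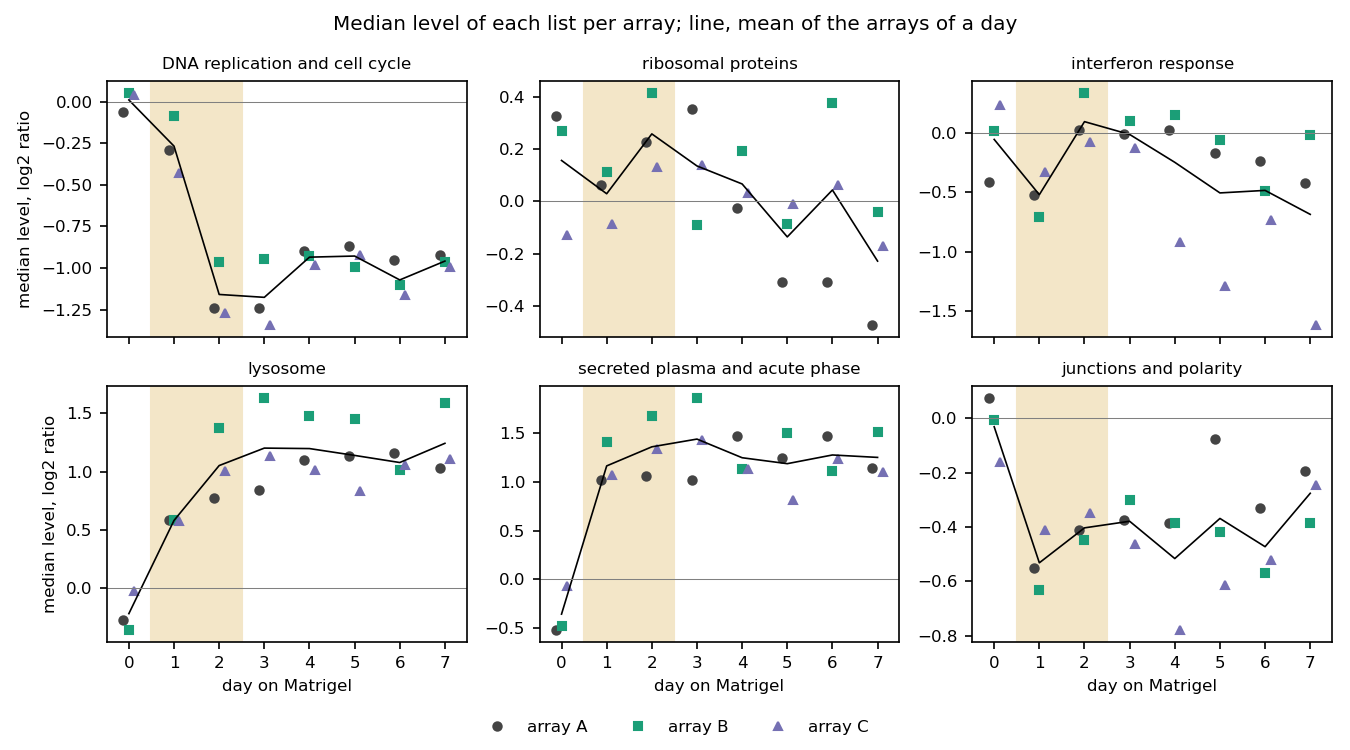
Median level of 6 gene lists on each array (points, log2 ratio to the reference) over days 0 to 7 on Matrigel (horizontal axis), with a line through the mean of each day's arrays and days 1 and 2 shaded. Letters were read as pairs only within days 1 to 3 and within days 4 to 7. The cell cycle list drops within the shaded days and stays low, and the interferon list returns to near 0 at day 2.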

How the data were processed

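The authors deposited 1 table of log2 ratios, as read here, with 24157 features and 24 arrays. Per the labels, Cy3 held the undifferentiated reference and Cy5 the sample. Scanner, background correction, normalization, log base and why cells are empty: not given in the sources used here. Annotation of the array platform gave 1 symbol for 13319 features, several for 589 and none for the rest, and 13290 were brought up to date by Entrez identifier (GRCm38.p6). Arrays were centred on their medians, and features of a gene were averaged. Units with values at both days for at least 2 letters went into a linear model with letter as a block (lmFit and eBayes of limma 3.58.1, R 4.3.3). The median standard error was 0.148, and 3 arrays per day limit the precision. Same-letter arrays deviated together (r 0.2 to 0.425 over 11977 units in 9 of 9 checks), so letters were read as pairs. Tested on simulated data for this step, with 200 of 14629 units changed, the fit recovered 63% of changes of 1 and 94% of changes of 2, with 7 false calls. The simulated errors were normal and independent, with a letter effect equal on every day. Those rates need not hold for the real arrays.

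Named genes were the 14 largest rises and falls among genes past the threshold, with 6 values and 1 sign in 3 pairs, up to 3 such members of each list, and 16 fixed genes; others are said to be named after their values were seen, as are list members beyond the 3. The comparison and the lists were chosen with earlier results of these data known. Alternatives covered pairing, arrays fitted, scaling, filters, averaging, weights and leaving out arrays.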

Additional observations from a re-analysis of the deposited data

How the results depend on the processing

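Without the replicate block the number of units called between day 1 and day 2 was 426 with days 1 to 3 fitted, 490 with days 1 and 2 only and 75 with all 24 arrays, and with the block by period in all 24 arrays it was 364. It was 1499 with arrays scaled, 1300 with quantile normalization and 2825 with array weights. Scaling moved the split to 824 higher and 675 lower, and quantile normalization to 569 and 731. Leaving out 1 letter gave 61 to 2138 calls and leaving out 1 array 270 to 582. For day 3 against day 2 the count was 0 as reported, 1 with features not averaged, 353 with array weights and 0 to 272 on leaving out a letter or array. The difference between the steps passed for 1 unit, and for 0 without the block (both sets of arrays), with the block by period, without the filter and with robust moderation. It passed for 142 with arrays scaled, 106 with quantile normalization, 36 with features not averaged, 791 with array weights, and 0 to 445 on leaving out a letter or array. The cause of these shifts was not tested.

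No named gene that passed the threshold changed direction under these alternatives, while Bmp4, Mt1 and Actb, which did not pass, changed sign under some (Actb to 0.27 with arrays scaled). Of the 28 genes with the largest changes, 22 stayed called without the block, 16 without it in all 24 arrays, 24 without the A arrays, 28 without the B arrays and 19 without the C arrays. Of the 91 named genes 81 were called, and of these 32 lost their call without the block, 54 without the A arrays, 61 without the C arrays and 1 without the B arrays. Where 2 arrays remain for a day, limma pools the spread over days.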
